A study of Homo sapiens with 3 samples.

Results

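The 52 genes described here build, drive and check the mitotic spindle. They were chosen by name from mitotic cyclins and kinases, the spindle checkpoint, kinetochores, kinesins, cytokinesis proteins and condensin. The choice was by name, with earlier results of these data known. Each matched exactly 1 locus in each library, out of 55827 gene names present in all libraries. They were measured by RNA-seq in PLC, an established human hepatocellular carcinoma line, in 3 groups of 1 library each. One library came from cells infected with hairpin viruses targeting DIS3L2, whose product is an RNA nuclease that prefers uridylated tails (shDIS3L2). Another came from cells given hairpins targeting HNRNPU, the gene of hnRNP U, a protein that binds RNA in the nucleus (shHNRNPU). The last carried a non-targeting hairpin (control), so viral infection is common to all of them. Every culture was harvested 48 hours after infection, and the number of hairpins per target was not found in the labels. The question behind the series is the route from DIS3L2 through hnRNP U to splicing in liver cancer.

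Mitosis begins when CDK1, the kinase bound to cyclins A and B, is activated. Kinesins and microtubule-binding proteins then build a bipolar spindle, condensin compacts the chromosomes, and kinetochores attach them to microtubules. The spindle checkpoint holds back the anaphase-promoting complex until every kinetochore is attached, after which securin and cyclin B are degraded and the cell divides. Transcripts of most of these proteins peak in G2 and M, through promoters that bind the MuvB complex at a cell cycle homology region and NF-Y at CCAAT boxes. In dividing liver cancer cells these genes are known as a proliferation signature. The hnRNP U protein is known to be found at the spindle and at kinetochores, and DIS3L2 loss is known to disturb mitosis in cultured cells.

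Both promoter elements were looked up because they are known features of G2 and M genes and were not used to choose the genes. Windows of 250 bases before to 50 bases after the gene start came from RefSeq (GRCh38.p14). Of the 52 genes 44 were matched, by the first window listed where a gene had several, and AURKA, BUB3, TTK, UBE2C, KNTC1, BIRC5, TPX2 and FOXM1 were not. The motifs searched were TTTGAA and CCAAT, on both strands, and no overlap between them was needed or barred. TTTGAA was found in 35 of 44 mitotic promoters (79.5%), against 9.25% of 7650 promoters of genes with a mean level of at least 1 FPKM and 15.2% of all 35116 promoters. Within 50 bases either side of the start it was found in 28 of 44 mitotic promoters, or 63.6%, against 2.77% of those of expressed genes and 4.62% of all. CCAAT was found in 33 of 44, against 37.1% of those of expressed genes and 34.6% of all. Of 35 promoters of DNA replication and S phase genes, 1 held TTTGAA and 18 held CCAAT. The genes shown here are ECT2, ANLN and TOP2A, with the largest log2 ratios against control among genes above 0 in every library, and KIF2C, which is listed above 0 in shHNRNPU alone, set beside PLK1 and CDC20, which stood below control in shDIS3L2. Each line gives the 150 bases before the start, 5′ to 3′ on the gene's own strand, with matches to either motif in capitals. A match on the opposite strand reads TTCAAA or ATTGG.
ECT2: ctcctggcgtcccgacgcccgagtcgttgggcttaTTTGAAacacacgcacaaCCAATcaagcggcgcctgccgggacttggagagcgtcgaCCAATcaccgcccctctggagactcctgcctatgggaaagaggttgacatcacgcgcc
ANLN: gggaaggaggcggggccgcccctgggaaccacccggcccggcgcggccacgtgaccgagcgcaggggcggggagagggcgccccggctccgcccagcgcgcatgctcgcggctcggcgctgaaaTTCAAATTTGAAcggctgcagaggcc
TOP2A: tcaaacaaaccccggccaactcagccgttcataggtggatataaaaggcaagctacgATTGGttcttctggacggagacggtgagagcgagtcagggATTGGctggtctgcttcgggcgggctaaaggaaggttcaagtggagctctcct
KIF2C: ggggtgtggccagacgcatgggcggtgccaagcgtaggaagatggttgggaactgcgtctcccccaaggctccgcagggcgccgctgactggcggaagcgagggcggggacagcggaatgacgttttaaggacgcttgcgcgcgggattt
PLK1: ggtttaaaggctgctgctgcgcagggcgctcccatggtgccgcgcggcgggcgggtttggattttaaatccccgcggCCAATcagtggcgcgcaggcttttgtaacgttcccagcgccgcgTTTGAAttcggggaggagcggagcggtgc
CDC20: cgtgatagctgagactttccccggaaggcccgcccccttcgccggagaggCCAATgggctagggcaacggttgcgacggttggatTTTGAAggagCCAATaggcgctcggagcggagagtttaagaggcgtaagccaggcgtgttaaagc
These windows lie at chr3:172750576-172750725 (plus strand), chr7:36389712-36389861 (plus), chr17:40417897-40418046 (minus), chr1:44739687-44739836 (plus), chr16:23678739-23678888 (plus) and chr1:43358831-43358980 (plus). ECT2 holds 1 TTTGAA and 2 CCAAT matches, PLK1 holds 1 of each, and CDC20 holds 1 TTTGAA and 2 CCAAT. ANLN has TTTGAA on both strands side by side close to its start and no CCAAT. TOP2A has 2 CCAAT matches here, both on the opposite strand. Over its whole window of 300 bases TOP2A holds 2 TTTGAA and 4 CCAAT, and CDC20 holds 2 TTTGAA and 2 CCAAT. KIF2C has no match of either motif in the printed or the whole window. A match is a string of letters and was not measured as a bound site.

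**Figure D1:**
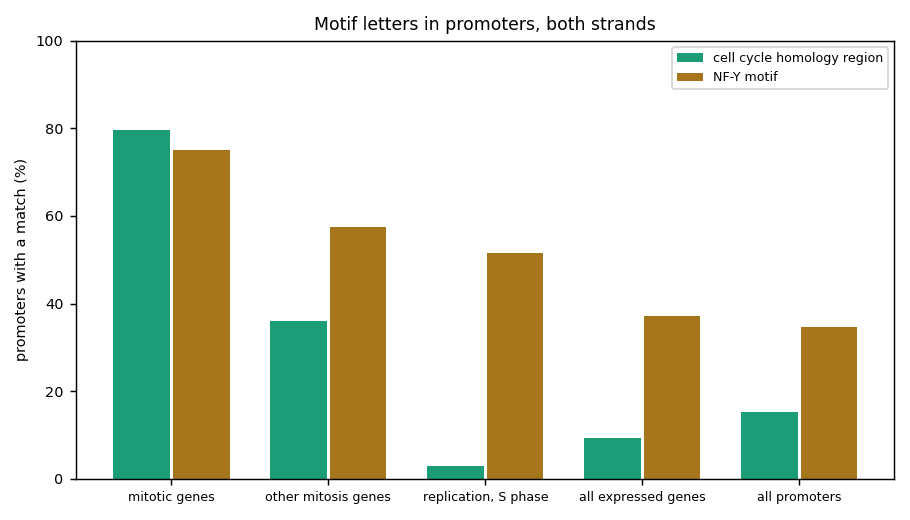
Share of promoter windows (y axis, percent) with a match to the cell cycle homology region (TTTGAA) or the NF-Y motif (CCAAT) in each gene set (x axis). The mitotic genes stand highest for both, with 35 and 33 of 44 promoters, and 1 of 35 replication promoters holds the first.

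Levels are FPKM, fragments scaled to transcript length and to the mapped fragments of the library, so they can be compared between genes. A range in parentheses after a level is its deposited interval, taken as the 95% default of the software, and it says nothing of variation between cultures. Log2 ratios are of FPKM plus 1, which understates the change of low genes. By the size rule used here, higher or lower means a ratio of at least 1 or at most -1 with intervals that do not overlap and a status of OK. With 1 library per group there is no replicate check and no p-value. Depth worked out from single-exon genes was 18.6 M fragments in shDIS3L2, 19.99 M in shHNRNPU and 23.0 M in control. At that depth the intervals of the 50 mitotic genes with a mean of at least 1 FPKM reached a median of 7.57%, 6.82% and 7.27% of the level to either side. DIS3L2 stood at 3.23 FPKM in shDIS3L2, 11.2 in shHNRNPU and 7.61 in control, and HNRNPU at 232, 33.5 and 178 FPKM in the same order, so each target was lowest in its own library. Both loci were merged with another name, AC068134.10 for DIS3L2 and HNRNPU-AS1 for HNRNPU. All 11 hepatocyte markers were found, and their summed level was 6810 FPKM in shDIS3L2, 12037 in shHNRNPU and 17715 in control. The highest single marker made up 2865, 6710 and 11439 FPKM of these sums. Against control 5 of the 11 were lower in shDIS3L2 (7.57% of all loci), 1 was higher (8.95%) and 5 passed neither way. In shHNRNPU 3 were lower (7.46% of all loci), 0 higher and 8 neither. The part of these marker differences in the results was not tested. No fibroblast or endothelial marker reached 1 FPKM, and the only blood marker that did, CD68, was merged with the abundant gene EIF4A1. In bulk RNA, more or fewer cells in mitosis and more or less RNA per cell cannot be told apart.

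The mitotic genes were well expressed. Their median level was 25.1 FPKM in shDIS3L2, 28.97 in shHNRNPU and 18.4 in control, above the median of all 11790 loci measured (11.4, 11.7 and 10.6 FPKM). UBE2C, the ubiquitin-conjugating enzyme of the anaphase-promoting complex, was the highest in every library, at 405 FPKM (385 to 426) in shDIS3L2, 686 (654 to 718) in shHNRNPU and 355 (337 to 373) in control. AURKB, the kinase of the chromosomal passenger complex, stood at 199 FPKM (189 to 208) in shDIS3L2, 287 (275 to 298) in shHNRNPU and 299 (288 to 311) in control. AURKA, the kinase of spindle poles, stood at 146 FPKM (141 to 151) in shDIS3L2, 234 (227 to 241) in shHNRNPU and 234 (228 to 241) in control. These 3 have the highest mean levels of the set, and in both Aurora kinases shDIS3L2 stands alone below the other libraries. At the other end CENPE, a kinetochore motor, had 0.630, 0.654 and 0.365 FPKM in shDIS3L2, shHNRNPU and control, too low to enter the counts.

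For 2 members the tables give no usable level in some libraries. HMMR, which encodes a spindle-binding hyaluronan receptor, was listed at 0 in all of them, which can be a failed estimate in cells that express its partners. KIF2C, a microtubule-depolymerizing kinesin of the centromere, was listed at 0 in shDIS3L2 and control and at 68.4 FPKM (64.5 to 72.3) in shHNRNPU. Its locus on chromosome 1 (45205490 to 45233439, hg19) overlapped no other expressed locus. It passes the size rule in shHNRNPU, with no fold given here against a listing of 0. Of the 52 genes, 50 had a mean of at least 1 FPKM, KIF2C through shHNRNPU alone, and 49 were above 0 in every library.

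**Figure D2:**
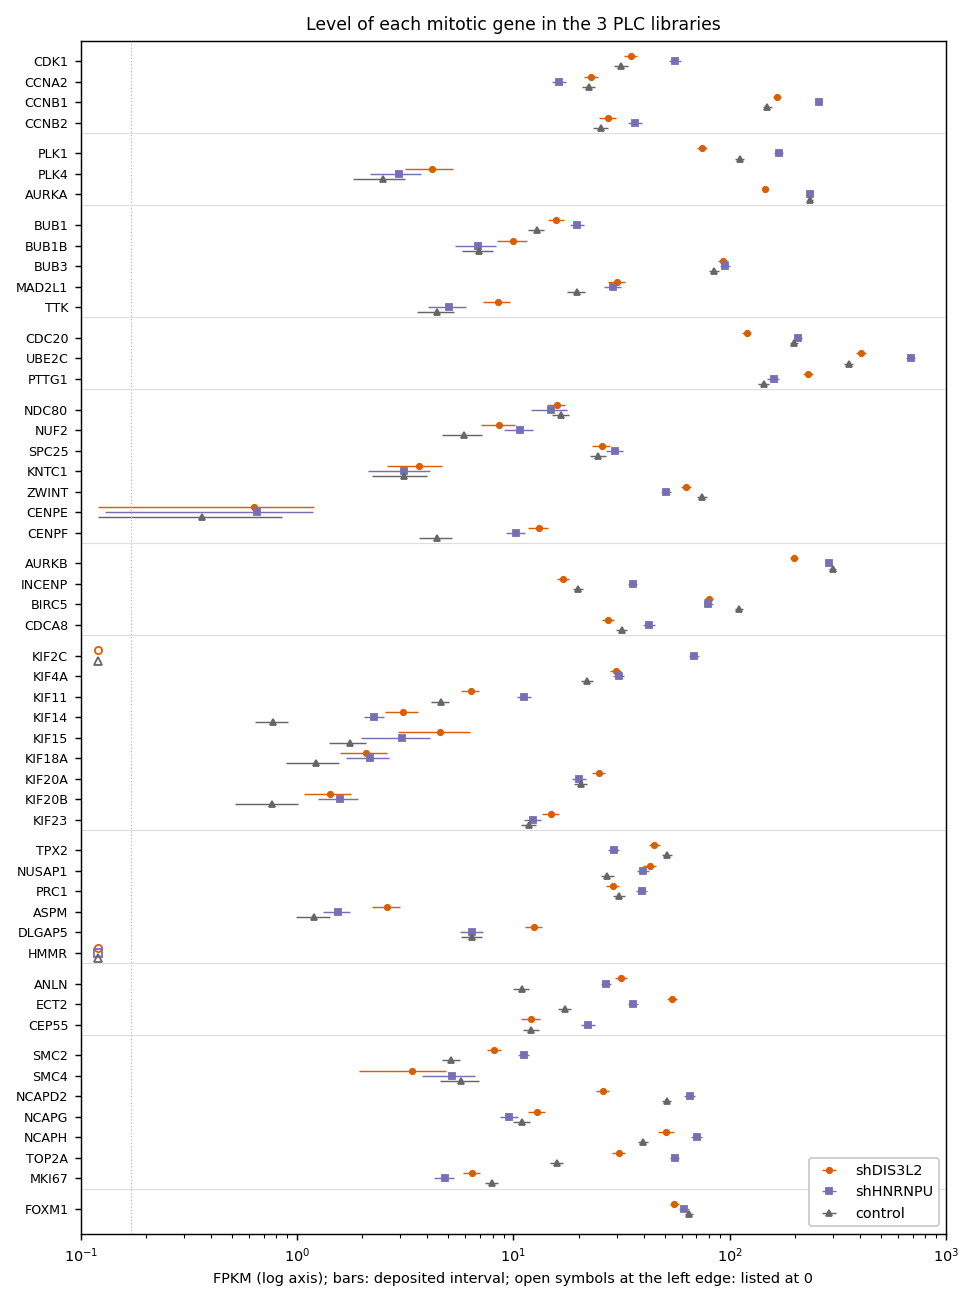
Level of each mitotic gene (rows, grouped by role) in FPKM on a log axis, with 1 symbol per library and bars for the deposited interval. Open symbols at the left edge are genes listed at 0, which are HMMR in all libraries and KIF2C in shDIS3L2 and control.

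The first comparison asks how mitotic transcripts stand when the nuclease is knocked down. In shDIS3L2, 5 of 50 mitotic genes were higher, 0 were lower and 45 passed neither way. The background over all 11790 loci was 8.95% higher and 7.57% lower, and 5 of 50 is near it. The 5 were the cytokinesis genes ECT2 and ANLN, the kinetochore gene CENPF and the kinesins KIF14 and KIF15. The median log2 ratio of the 50 was 0.20, against 0.09 over all loci. Intervals were apart with shDIS3L2 above control in 24 of the 50 (background 32.7%) and below it in 12 (background 25.3%). At 1.5-fold, 12 were higher (background 19.0%) and 4 lower (background 15.0%).

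ECT2 encodes the exchange factor that activates RhoA at the division plane (chromosome 3, 172468472 to 172539264, hg19). It had 54.0 FPKM (51.3 to 56.8) in shDIS3L2, against 17.2 (16.0 to 18.5) in control, a log2 ratio of 1.59 (1.47 to 1.72, from the deposited intervals). ANLN, anillin, links the contractile ring to actin and septins (chromosome 7, 36429415 to 36493400). It had 31.5 FPKM (29.5 to 33.5) in shDIS3L2, against 10.9 (10.0 to 11.9) in control, a log2 ratio of 1.45 (1.31 to 1.59). In shDIS3L2 these have the largest ratios of the set, and their intervals lie far apart. CENPF, a large protein of the outer kinetochore (chromosome 1, 214776538 to 214837931), had 13.1 FPKM (11.7 to 14.5) in shDIS3L2, against 4.44 (3.65 to 5.22) in control, a log2 ratio of 1.38. KIF14, a kinesin of the midbody (chromosome 1, 200520628 to 200589862), had 3.08 FPKM (2.56 to 3.602) in shDIS3L2, against 0.773 (0.641 to 0.905) in control, a log2 ratio of 1.20. KIF15, which helps keep spindle poles apart (chromosome 3, 44803209 to 44915563), had 4.60 FPKM (2.92 to 6.27) in shDIS3L2, against 1.75 (1.40 to 2.09) in control, a log2 ratio of 1.03. KIF14 and KIF15 are low, and KIF15 lies just past the size rule with wide intervals. The assembled bounds of ANLN, CENPF and KIF15 differed between libraries. Without the loci of differing bounds 2 of the mitotic genes were higher (background 8.74%). TOP2A, the topoisomerase that untangles sister chromatids, lay just inside the rule at 30.7 FPKM (28.6 to 32.7) in shDIS3L2, against 15.9 (14.8 to 17.0) in control, with 0.91 as log2 ratio. On the lower side NCAPD2, a condensin I subunit, lay just inside it with 26.0 FPKM (24.2 to 27.7) in shDIS3L2, against 51.1 (48.5 to 53.8) in control, with -0.95 as log2 ratio. Rescaled by the median of ratios, 4 mitotic genes were higher (background 7.52%) and NCAPD2 was lower (background 8.90%). KIF15 was then inside the rule at 0.95. Rescaled to a fixed total (TPM), 0 were higher (background 2.99% on that scale) and 6 lower (background 16.7%). The median was then -0.32, against -0.39 over all loci.

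Knockdown of HNRNPU was compared with the same control library. In shHNRNPU, 6 of 50 mitotic genes were higher, 0 were lower and 44 passed neither way. The background was 8.32% higher and 7.46% lower. Without KIF2C, which is listed at 0 in control, 5 were higher: TOP2A, ANLN, KIF11, CENPF and ECT2. The median log2 ratio was 0.38, against 0.12 over all loci. At 1.5-fold, 17 of 50 were higher (background 19.9%) and 2 lower (background 13.8%). Intervals were apart with shHNRNPU above control in 27 (background 34.9%) and below it in 5 (background 23.5%). Rescaled by the median of ratios, 3 mitotic genes were higher (TOP2A, ANLN and KIF2C) and 0 lower. The same rescaling turned the split over all loci to 760 higher (6.45%) and 1080 lower (9.16%), against 981 and 879 as deposited. Rescaled to a fixed total (TPM), KIF2C alone was higher (background 2.48% on that scale) and 5 mitotic genes were lower (background 22.8%). The median was then -0.35, against -0.55 over all loci.

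TOP2A (chromosome 17, 38544768 to 38574202, hg19) had 55.7 FPKM (53.2 to 58.3) in shHNRNPU, against 15.9 (14.8 to 17.0) in control, a log2 ratio of 1.75 (1.63 to 1.86). It is the largest ratio among members above 0 in every library. ANLN had 26.8 FPKM (25.3 to 28.3) in shHNRNPU, against 10.9 (10.0 to 11.9) in control, a log2 ratio of 1.22 (1.08 to 1.36). KIF11, the plus-end motor that slides spindle poles apart (chromosome 10, 94353043 to 94415150), had 11.2 FPKM (10.4 to 12.005) in shHNRNPU, against 4.60 (4.16 to 5.05) in control, a log2 ratio of 1.12. CENPF had 10.3 FPKM (9.20 to 11.3) in shHNRNPU, against 4.44 (3.65 to 5.22) in control, a log2 ratio of 1.05. ECT2 had 35.8 FPKM (33.9 to 37.7) in shHNRNPU, against 17.2 (16.0 to 18.5) in control, a log2 ratio of 1.01. CENPF, KIF11 and ECT2 lie close to the threshold, and each lay inside it after rescaling by the median of ratios, at 0.92, 0.99 and 0.86. Just inside the rule stood SMC2, a condensin ATPase (11.2 FPKM in shHNRNPU against 5.16 in control, log2 ratio 0.98), and UBE2C (log2 ratio 0.95). On the lower side TPX2, which activates Aurora A and nucleates spindle microtubules, stood at 29.1 FPKM (27.3 to 30.8) in shHNRNPU, against 51.4 (48.8 to 54.1) in control. Its log2 ratio was -0.80, the lowest of the set, and passed neither way.

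**Figure D3:**
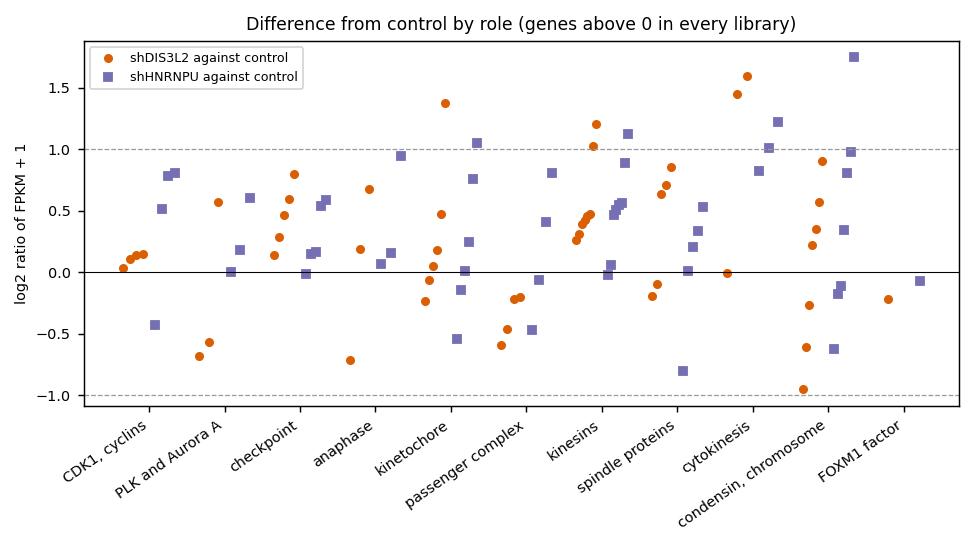
Log2 ratio of FPKM plus 1 against control (y axis) for each mitotic gene above 0 in every library, by role (x axis), with shDIS3L2 left of shHNRNPU. Dashed lines mark the size of 1 and -1. The cytokinesis genes ECT2 and ANLN lie past 1 in both, and no point lies below -1.

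Both comparisons above share the control library, so the knockdowns were also set against each other. Here 4 of 50 mitotic genes were higher in shHNRNPU and 0 lower (background 10.2% higher and 10.5% lower), or 3 without KIF2C. The median log2 ratio was 0.04, against 0.03 over all loci. Intervals were apart with shHNRNPU above shDIS3L2 in 19 of the 50 (background 31.8%) and below it in 16 (background 28.4%). At 1.5-fold, 13 were higher (background 20.4%) and 3 lower (background 18.7%). NCAPD2 (chromosome 12, 6602522 to 6641130) had 65.2 FPKM (61.4 to 68.9) in shHNRNPU, against 26.0 (24.2 to 27.7) in shDIS3L2, a log2 ratio of 1.30 (1.17 to 1.42). It overlaps the abundant gene MRPL51 over 486 bases at 1 end. PLK1, the kinase of mitotic entry and centrosome maturation (chromosome 16, 23688977 to 23701688), had 169 FPKM (161 to 177) in shHNRNPU, against 74.7 (70.5 to 78.9) in shDIS3L2, a log2 ratio of 1.17 (1.06 to 1.27). INCENP, the scaffold of the chromosomal passenger complex (chromosome 11, 61891445 to 61922919), had 35.6 FPKM (34.0 to 37.3) in shHNRNPU, against 16.9 (15.9 to 18.0) in shDIS3L2, a log2 ratio of 1.03 (0.92 to 1.14), or 0.98 after rescaling by the median of ratios. Set against genes of like GC content these ratios were 0.96 for PLK1 and 0.80 for INCENP, and under TPM 0.91 and 0.73, all inside the rule. Control lies between the knockdowns for each of the 3, at 51.1 FPKM for NCAPD2, 111 for PLK1 and 19.9 for INCENP. The assembled bounds of NCAPD2 and INCENP differed between libraries. Without the loci of differing bounds 2 of the mitotic genes were higher (background 8.75%), PLK1 and KIF2C. DLGAP5, a spindle protein that bundles kinetochore fibres, lay furthest the other way, with a log2 ratio of -0.84 that passed neither way. It had 6.46 FPKM (5.67 to 7.25) in shHNRNPU, against 12.4 (11.3 to 13.5) in shDIS3L2. Control, at 6.41 FPKM (5.69 to 7.12), overlapped shHNRNPU and lay below shDIS3L2.

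Within the machinery of entry, the 4 genes of CDK1 and its cyclins passed the size rule in no comparison. Over all loci 8.95% were higher in shDIS3L2 and 8.32% in shHNRNPU, so none past the rule in a role this small is near the background. CCNB1, cyclin B1, had 166 FPKM (159 to 173) in shDIS3L2, 257 (247 to 268) in shHNRNPU and 149 (143 to 156) in control. CDK1 had 34.9, 55.9 and 31.5 FPKM in the same order, and CCNB2, cyclin B2, had 27.3, 36.5 and 25.3. For these 3 genes shHNRNPU was the highest library, with its interval above that of control (34.9% of all loci). CCNA2, cyclin A2, went the other way, at 22.8 FPKM in shDIS3L2, 16.3 (15.0 to 17.5) in shHNRNPU and 22.3 (20.8 to 23.8) in control. PLK4, the kinase that starts centriole duplication, was low at 4.19, 2.95 and 2.48 FPKM, with the intervals of each knockdown overlapping that of control.

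All 5 checkpoint genes had positive log2 ratios in shDIS3L2, between 0.14 and 0.80. Intervals were apart in 4 of them (32.7% of all loci), and none passed the size rule (8.95% of all loci higher). Set against genes of like GC content their median was 0.20 in place of 0.47, with BUB3 at -0.13. TTK, the kinase MPS1 that starts checkpoint signalling, had 8.45 FPKM (7.23 to 9.67) in shDIS3L2, 5.01 (4.02 to 6.01) in shHNRNPU and 4.44 (3.58 to 5.30) in control. MAD2L1, the inhibitor of CDC20, had 30.1 FPKM (27.4 to 32.8), 28.9 (26.3 to 31.4) and 19.6 (17.6 to 21.5) in the same order. TTK stood apart in shDIS3L2 alone, and MAD2L1 in both knockdowns. BUB1 had 15.8, 19.7 and 12.8 FPKM, BUB3 had 93.3, 95.2 and 84.8, and BUB1B had 9.93, 6.84 and 6.91. The BUB1B locus was merged with PAK6, so its level is of both. Their target CDC20, the activator of the anaphase-promoting complex, had 120 FPKM (114 to 126) in shDIS3L2, 207 (198 to 216) in shHNRNPU and 198 (189 to 206) in control. PTTG1, the separase inhibitor securin, stood highest in shDIS3L2, at 230 FPKM (217 to 242), with 159 (149 to 169) in shHNRNPU and 143 (135 to 152) in control.

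In the kinetochore, CENPF alone of 6 measured genes passed the size rule (8.95% of all loci higher in shDIS3L2 and 8.32% in shHNRNPU). NDC80 and SPC25, subunits of the complex that grips microtubules, had intervals overlapping control in both knockdowns. NDC80 had 15.9, 14.9 and 16.6 FPKM in shDIS3L2, shHNRNPU and control, and SPC25 had 25.5, 29.4 and 24.7. Their partner NUF2 had 8.61 FPKM (7.07 to 10.1) in shDIS3L2, 10.7 (9.05 to 12.3) in shHNRNPU and 5.91 (4.67 to 7.14) in control, apart from control in shHNRNPU. ZWINT, which recruits the dynein adaptor complex, had 63.0, 50.8 and 74.4 FPKM, with both knockdowns below control. KNTC1, a subunit of that adaptor complex, had 3.64, 3.13 and 3.10 FPKM with overlapping intervals.

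The 4 genes of the chromosomal passenger complex, which corrects wrong attachments, all stood below control in shDIS3L2 with intervals apart (25.3% of all loci). Their log2 ratios ran from -0.59 to -0.20, with none past the size rule (7.57% of all loci lower). BIRC5, survivin, had 79.8 FPKM (76.1 to 83.6) in shDIS3L2, 79.5 (75.7 to 83.4) in shHNRNPU and 111 (106 to 115) in control. CDCA8, borealin, had 27.4 FPKM (25.6 to 29.2), 42.5 (39.9 to 45.03) and 31.7 (29.9 to 33.6). In shHNRNPU INCENP and CDCA8 stood above control, BIRC5 below it, and the interval of AURKB overlapped it. On the FPKM scale the catalytic subunit AURKB had the highest level of the 4 in every library and the scaffold INCENP the lowest.

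Of the 9 kinesins, 8 were above 0 in every library. In shDIS3L2 all 8 had intervals above control (32.7% of all loci), with a median log2 ratio of 0.44 and KIF14 and KIF15 past the size rule. Set against genes of like GC content that median was 0.09, and KIF14 (0.82) and KIF15 (0.70) lay inside the rule. In shHNRNPU their median was 0.53, KIF11 passed, and besides KIF2C 5 had intervals above control (34.9% of all loci). KIF4A, the chromokinesin that works with PRC1 at the midzone, had 29.7 FPKM (28.1 to 31.3) in shDIS3L2, 30.6 (28.9 to 32.3) in shHNRNPU and 21.9 (20.5 to 23.3) in control. Its bounds differed between libraries, and it overlaps the more abundant gene PDZD11 over 486 bases. PDZD11 had 83.8, 83.3 and 66.6 FPKM in the same order, and its part in the level of KIF4A was not tested. KIF18A, which damps chromosome movement, had 2.09, 2.16 and 1.23 FPKM, and KIF20B had 1.42, 1.58 and 0.765. KIF20A and KIF23, which act in cytokinesis, differed less, at 24.7, 20.2 and 20.5 FPKM for KIF20A and 14.9, 12.3 and 11.8 for KIF23. The third cytokinesis gene beside ANLN and ECT2, CEP55, which recruits the abscission machinery, had 12.04 FPKM (10.9 to 13.2) in shDIS3L2, 22.1 (20.5 to 23.8) in shHNRNPU and 12.1 (11.02 to 13.2) in control.

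Among the 5 spindle microtubule proteins measured none passed the size rule in any comparison. Over all loci 8.95% were higher in shDIS3L2 and 8.32% in shHNRNPU, so none among so few genes is near the background. NUSAP1, which bundles microtubules near chromosomes, had 42.7 FPKM (39.8 to 45.7) in shDIS3L2, 39.7 (37.2 to 42.2) in shHNRNPU and 27.1 (25.3 to 29.02) in control. ASPM, of the spindle poles, had 2.60, 1.54 and 1.20 FPKM, apart from control in shDIS3L2 alone. PRC1, the crosslinker of the midzone, had 28.8, 39.1 and 30.8 FPKM, apart from control in shHNRNPU alone.

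The 5 condensin genes differed in direction in shDIS3L2, with none past the size rule against control. Over all loci 8.95% were higher and 7.57% lower there. NCAPH, the kleisin of condensin I, had 50.9 FPKM (46.7 to 55.0) in shDIS3L2, 70.3 (66.0 to 74.7) in shHNRNPU and 39.7 (37.6 to 41.8) in control, while NCAPD2 stood below control in shDIS3L2. NCAPG had 12.9, 9.54 and 10.9 FPKM with intervals overlapping control. SMC4, partner of SMC2, had 3.41 FPKM (1.93 to 4.89), 5.22 (3.796 to 6.64) and 5.74 (4.55 to 6.93), and lies inside a larger merged locus of IFT80 and TRIM59, so its level is uncertain. MKI67, which encodes the proliferation antigen Ki-67 that coats mitotic chromosomes, stood below control in both knockdowns, at 6.45 FPKM (5.86 to 7.04) in shDIS3L2, 4.80 (4.30 to 5.30) in shHNRNPU and 7.96 (7.41 to 8.50) in control. FOXM1, the transcription factor of G2 and M genes, had 55.4 FPKM (52.7 to 58.1), 61.3 (58.1 to 64.5) and 64.7 (62.0 to 67.4).

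The differences in shDIS3L2 moved with the base composition of the transcripts. Across the 49 mitotic genes above 0 in every library, the log2 ratio in shDIS3L2 correlated with the GC content of the longest coding transcript at a Spearman rho of -0.60. Over 9026 genes the same correlation was -0.32. In shHNRNPU it was -0.29 over the 49 genes and -0.10 over all. The ratio in shDIS3L2 also correlated with mean level, at -0.47 over the 49 genes and -0.05 over all. With transcript length it was 0.35 and 0.09. In shHNRNPU these were -0.06 and -0.11 for level, and 0.16 and 0.09 for length. These are descriptions across genes that share their libraries, and genes are not replicates. The mitotic genes had a median GC content of 42.1%, against 49.0% over all genes. In shDIS3L2 the 31 mitotic genes of at most 45% GC had a median log2 ratio of 0.47, with 28 positive, and the 18 of higher GC had -0.22, with 13 negative. Over all genes split the same way the medians were 0.31 and -0.02. All 5 genes called higher in shDIS3L2 have 38.04% to 41.2% GC, while NCAPD2, AURKB, PLK1 and CDC20 have 52.5%, 55.6%, 57.3% and 57.9%. Not every gene followed this. AURKA, at a log2 ratio of -0.68 in shDIS3L2, has 46.6% GC, and SMC4, at -0.61 with overlapping intervals, has 37.3%. PTTG1, with 49.3% GC, stood above control at 0.68. Each ratio was then set against the median of all genes in its own class of GC content, of 10 equal classes. The median of the mitotic genes in shDIS3L2 was then 0.01, with 25 of 49 above 0. There 3 genes stayed past the size rule: ECT2 (1.21), ANLN (1.12) and CENPF (1.05). Of the 9026 genes 5.37% were higher by this measure, and 3 of 49 is near it. In shHNRNPU the median was 0.20 and 1 gene stayed past the rule (4.27% of the 9026 genes), TOP2A (1.46). The parts of base composition, level and length in these results were not tested.

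**Figure D4:**
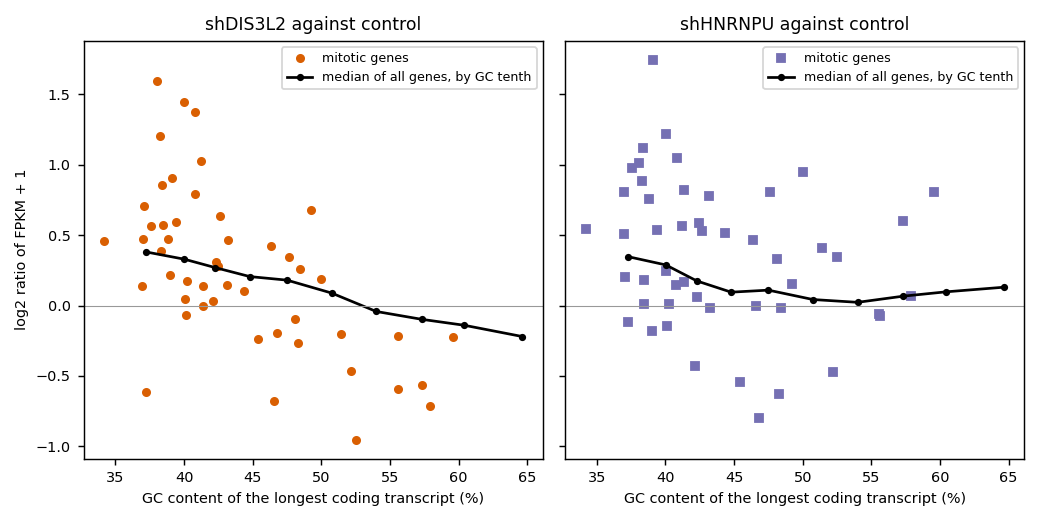
Log2 ratio of FPKM plus 1 against control (y axis) for 49 mitotic genes, by GC content of the longest coding transcript in percent (x axis), for shDIS3L2 (left) and shHNRNPU (right). The black line joins the medians of all genes in 10 classes of GC content. It runs from 0.38 to -0.22 for shDIS3L2. For shHNRNPU it starts at 0.35, is lowest at 0.02 in class 7 and ends at 0.13.

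A second list of 73 mitosis genes, of the inner centromere, further kinetochore subunits, condensin II, the anaphase-promoting complex, spindle and centrosome proteins and entry kinases, was counted the same way. Of 65 measured, 4 were higher and 2 lower in shDIS3L2, where 8.95% and 7.57% of all loci were, and the median log2 ratio was 0.09, as over all loci. In shHNRNPU 4 were higher and 2 lower, where 8.32% and 7.46% of all loci were, with a median of 0.26 against 0.12 over all loci. Neither count of higher genes is above its background. WEE1, the kinase that inhibits CDK1, had 29.2 FPKM in shDIS3L2, 21.6 in shHNRNPU and 8.69 in control, log2 ratios of 1.64 and 1.22, at a locus merged with 2 small RNA genes. PKMYT1, the related inhibitory kinase at membranes, had 24.4, 46.0 and 58.9 FPKM, and was lower in shDIS3L2 (log2 ratio -1.24). CENPW, a histone-fold protein of the inner centromere, had 71.2, 116 and 30.5 FPKM, higher in shDIS3L2 (1.20) and in shHNRNPU (1.89). ANAPC7 shares its locus with the abundant ARPC3, and its ratios of 1.01 and 1.05 are of both genes. The other calls against control, SKA3 higher in each knockdown, MASTL lower in shDIS3L2 and in shHNRNPU, and MIS12 in shHNRNPU, rest on libraries listed at 0.

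Genes of DNA replication and S phase stood lower than the mitotic genes in shDIS3L2. Of 40 measured, 4 were lower (7.57% of all loci) and 1 higher (8.95% of all loci), and 29 had intervals below control (25.3% of all loci), with a median log2 ratio of -0.46 against 0.20 for the mitotic genes. Set against all genes of like GC content the medians were -0.49 and 0.01. MCM2 of the replicative helicase had 41.7 FPKM in shDIS3L2 against 87.3 in control, GINS2 had 21.2 against 50.7, and the ligase LIG1 had 11.6 against 27.5. GINS4, the other lower gene, was listed at 0 in shDIS3L2, and CCNE2, the higher one, in control. In shHNRNPU the replication genes had a median of -0.07, with 2 higher (8.32% of all loci) and 1 lower (7.46%). RRM2, the small subunit of ribonucleotide reductase, was at 224 FPKM in shHNRNPU against 47.7 in control, at a locus merged with C2orf48. No test of the difference between lists was made.

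Of 13 regulators of cell cycle promoters, CDKN1A, the inhibitor p21 that lowers CDK activity, had 36.7 FPKM in shDIS3L2, 15.4 in shHNRNPU and 7.53 in control, log2 ratios of 2.14 and 0.94. MYBL2, the activating partner of MuvB, had 155, 133 and 259 FPKM, log2 ratios of -0.74 and -0.95 that passed neither way. In shDIS3L2 1 of the 13 was higher (8.95% of all loci) and 1, E2F5, listed at 0 there, lower (7.57% of all loci). The median log2 ratio of the 13 was -0.20 in shDIS3L2 and 0.25 in shHNRNPU. In shHNRNPU 1 of the 13 was higher (8.32% of all loci). It was LIN54, a DNA-binding subunit of MuvB, at 3.003 FPKM against 0.930 in control.

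**Figure D5:**
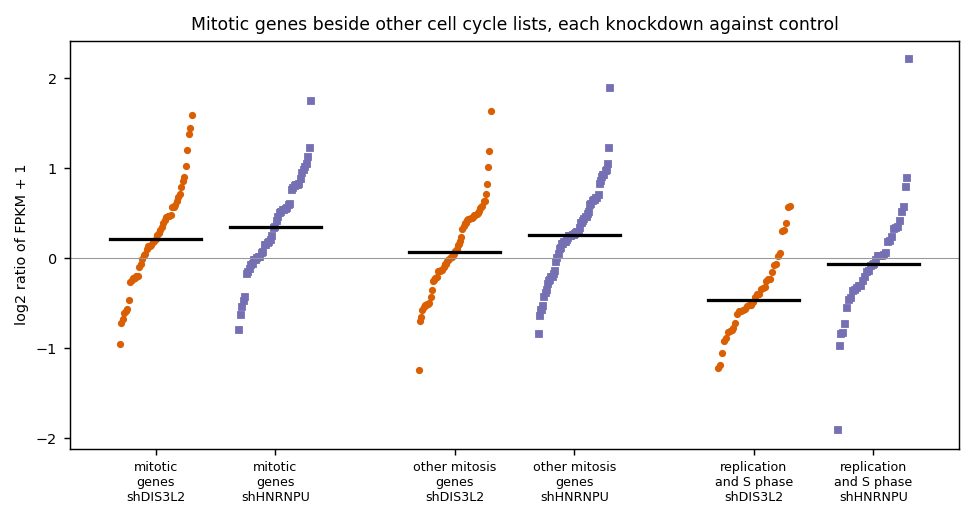
Log2 ratio of FPKM plus 1 against control (y axis) for genes above 0 in every library, in 3 lists (x axis), with shDIS3L2 left of shHNRNPU in each and a bar at each median. The mitotic genes have medians of 0.22 and 0.34 and the replication genes -0.46 and -0.07.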

How the data were processed

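RNA was measured in 3 libraries of PLC cells, 1 per group. Per the labels' protocols, total RNA was isolated with TRIZOL, and the library kit was NEBNext Ultra RNA. Per the submitters' processing notes, TopHat2 2.0.12 and Cufflinks 2.2.1 were used with genome build hg19. The values the authors deposited are FPKM per gene, fragments scaled to transcript length and mapped fragments, with bounds and a status, per the file headers. Gene loci were assembled per library, so bounds can differ (11 of the 52 mitotic genes). Further options: not given in the sources used here. The kit is not described as stranded, and 16 of the 52 mitotic genes overlapped another expressed locus in at least 1 library.

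Names were split at commas, the highest locus was used where a name had several, and names sharing a locus were counted once, leaving 11790 loci with a mean of at least 1 FPKM. Coordinates are 1-based, with the bounds of control. Of estimates of up to 20 fragments, 32.9%, 31.5% and 32.4% in shDIS3L2, shHNRNPU and control were whole within 0.02, so no count test was run. The control table held 0 mitochondrial loci, against 11 in shDIS3L2 and 10 in shHNRNPU. GC content came from GENCODE transcripts, for 80.1% of loci and all 52 mitotic genes. Intervals of log2 ratios combine the deposited intervals of both libraries. The size rule was tested on simulated data. The simulated noise was drawn from the deposited intervals, so the simulation says nothing of variation between cultures. The members and lists were chosen with earlier results of these data known. Named genes are all 52 members, with full values for those past the size rule and the 3 with the highest mean, and on other lists up to 6 past the rule, with CDKN1A and MYBL2. Some genes of the other lists are not reported here. Python 3.11.15, pandas 2.3.3 and scipy 1.17.1 were used.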

Additional observations from a re-analysis of the deposited data

How the results depend on the processing

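No paired analysis was possible because each group has 1 library, and for the same reason no library could be left out. The ratio of some named gene came inside the size rule under 4 alternatives: a pseudocount of 5, the median of ratios, TPM and GC centring. Under these, 25 values stayed past the size rule, 33 no longer passed it and 0 reversed. A pseudocount of 0.1 lost 0, and the filters and the other loci rules leave a gene's ratio as it is. A filter can still drop a call with its gene. Of 15 calls, 13 remained with a mean FPKM of at least 5, 13 without genes listed at 0 and 8 without loci of differing bounds. Of the counts and medians, 174 were close to the value as deposited and 60 moved. That tally includes medians that cannot move, as when only the fold or the use of intervals was altered. A close value can also change sign. In shDIS3L2 the median of the other mitosis genes went from 0.086 to -0.011 under the median of ratios and was counted as close. GC centring was added after the data were seen. The cause of each shift was not tested. Scaling to a fixed total (TPM) takes the median of all loci to -0.39 in shDIS3L2 and -0.55 in shHNRNPU. RNA5-8S5 holds 68.7%, 72.5% and 54.0% of that total in shDIS3L2, shHNRNPU and control.

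In shDIS3L2 against control the members gave 5 higher, 0 lower and a median log2 ratio of 0.20. Higher members numbered 2 with a pseudocount of 5, 3 with a mean FPKM of at least 5, 0 under TPM, 2 without loci of differing bounds, 12 at 1.5-fold and 3 with GC centring. Lower members numbered 1 under the median of ratios, 6 under TPM and 4 at 1.5-fold. The median was -0.320 under TPM and 0.008 with GC centring. The other mitosis genes gave 4 higher, 2 lower and a median of 0.09. Higher ones numbered 2 with a pseudocount of 5, 1 under TPM, 2 without merged loci, 2 without loci of differing bounds, 8 at 1.5-fold and 1 with GC centring. Lower ones numbered 10 under TPM, 4 at 1.5-fold, and 1 each with a pseudocount of 5, a mean FPKM of at least 5, without genes listed at 0, without loci of differing bounds and with GC centring. Their median was -0.428 under TPM and -0.072 with GC centring. Over all loci kept, 8.95% were higher and 7.57% lower as deposited, and 2.99% and 16.7% under TPM. These shares were 4.70% and 4.33% with a pseudocount of 5, 19.0% and 15.0% at 1.5-fold, and 5.37% and 5.50% with GC centring. They were 8.99% and 7.67% with a mean FPKM of at least 5, and 8.74% and 6.74% without loci of differing bounds. The share higher was 8.70% without merged loci. The share lower was 8.90% under the median of ratios and 5.62% without genes listed at 0.

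In shHNRNPU against control the members gave 6 higher, 0 lower and a median of 0.38. Higher members numbered 2 with a pseudocount of 5, 3 under the median of ratios, 1 under TPM, 17 at 1.5-fold and 1 with GC centring. KIF2C, listed at 0 in control, is 1 of the 2 with a pseudocount of 5 and the only 1 under TPM. Lower members numbered 5 under TPM and 2 at 1.5-fold, and the median was -0.354 under TPM. The other mitosis genes gave 4 higher, 2 lower and a median of 0.26. Higher ones numbered 7 with a pseudocount of 0.1, 1 under TPM, 2 without merged loci, 2 without loci of differing bounds, 18 at 1.5-fold and 1 with GC centring. Lower ones numbered 1 with a pseudocount of 5, 1 with a mean FPKM of at least 5, 12 under TPM, 0 without genes listed at 0, 4 at 1.5-fold and 0 with GC centring. Their median was 0.111 under the median of ratios, -0.491 under TPM and 0.081 with GC centring.

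In shHNRNPU against shDIS3L2 the members gave 4 higher and 0 lower. Higher members numbered 2 under TPM, 2 without loci of differing bounds, 13 at 1.5-fold and 1 with GC centring, and lower members 3 at 1.5-fold. The other mitosis genes gave 2 higher, 3 lower and a median of 0.21. Higher ones numbered 1 with a pseudocount of 5, 0 under TPM and 15 at 1.5-fold. Lower ones numbered 6 at 1.5-fold and 1 with GC centring, and the median was -0.013 under TPM. Over all loci kept, 10.2% were higher and 10.5% lower as deposited, and 4.77% and 10.7% under TPM. These shares were 20.4% and 18.7% at 1.5-fold, and 6.67% and 9.10% with GC centring. The share higher was 5.31% with a pseudocount of 5 and 8.75% without loci of differing bounds.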
